A study of Mus musculus with 14 samples.

Results

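Otx2 binding in mouse retina was compared between the adult and the day of birth (P0). The material was retina of wild-type CD1 mice, profiled by CUT&RUN, in which an antibody steers a nuclease to a chromatin protein so that the DNA cut free beside that protein can be sequenced. There were 2 libraries of adult retina and 2 of P0 retina, and these 4 were taken from a series of 14 samples. The series also holds CUT&RUN for Otx2 at embryonic day 14 (E14, 1 library) and for the corepressor BCOR at E14 (1 library), P0 and in the adult (2 libraries each), which served here as readouts that did not define the Otx2 regions. The labels give no age in days for the adults and do not say how many retinas each library held or whether the replicates come from separate litters, so the spread between replicates may be technical. They repeat 1 protocol text for every sample, on electroporation of P0 eyes, so the handling of the CUT&RUN retinas is not described apart. The sample labels name Otx2 as the target, while the series text writes Otx2/Crx, and no expression was measured in these libraries by which the tissue label could be checked.

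Otx2 is a homeodomain transcription factor of the eye. In the retina it is needed for the fate of photoreceptors and bipolar cells, and it acts upstream of and beside its relative Crx at photoreceptor genes. The retina at birth still holds dividing progenitors together with young photoreceptors, while the adult retina is made up mostly of mature rods. BCOR is a corepressor that belongs to a variant Polycomb complex. A whole retina mixes these cell types, so fewer cells that bind Otx2 at a place and less Otx2 bound per cell cannot be told apart.

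A region of a stage was a set of overlapping peaks, on chromosomes 1 to 19, with at least 1 peak from each replicate of that stage. On these chromosomes the adult lists held 7183 and 14590 peaks and the P0 lists 21759 and 24884. They gave 6591 adult regions and 18280 P0 regions, which merged into 20619 places of the 39193 places with a peak in any of the 10 lists. An adult region that overlapped a P0 region by at least 1 base, and the reverse, was called kept. An adult region without a P0 region was called gained, and a P0 region without an adult region was called lost. The depth of the libraries is unknown and the lists differ in length, so the counts are also given for lists cut to equal length. Intervals are 95% Wilson intervals over regions. They cover counting error alone and not the spread between retinas, and neighbouring regions are not independent.

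With all deposited peaks, most adult Otx2 regions had been Otx2 regions at birth, while most regions of birth had no counterpart in the adult. At equal list length the first part did not hold, as 41.0% of adult regions were kept. Of the adult regions 4199 (63.7%, interval 62.5 to 64.9%) were kept and 2392 (36.3%, 35.1 to 37.5%) were gained. Of the P0 regions 4239 (23.2%, 22.6 to 23.8%) were kept and 14041 (76.8%, 76.2 to 77.4%) were lost. Peak by peak, 63.5 and 67.2% of the peaks of adult replicate 1 overlapped a peak of P0 replicate 1 and 2, and 51.9 and 55.3% of those of adult replicate 2 did. In the other direction, 20.9 and 19.3% of the peaks of P0 replicate 1 and 2 overlapped a peak of adult replicate 1, and 35.0 and 32.6% overlapped one of adult replicate 2. The adult replicate used therefore moved the share of P0 peaks found again more than the P0 replicate did. Without adult replicate 1, the shortest list, 7519 regions were gained, 11222 were lost, 7071 adult regions (48.5%) and 7058 P0 regions (38.6%) were kept. Each of the 14590 peaks of adult replicate 2 then counted as an adult region, so the rule for a region changed as well.

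Gained and lost regions were for the most part without any peak in the other stage. Of the 2392 gained regions, 1814 (75.8%, 74.1 to 77.5%) had no peak in either P0 list, 565 (23.6%) had a peak in 1 P0 list, and 13 had peaks in both that did not form a common region. Of the 14041 lost regions, 11097 (79.0%, 78.4 to 79.7%) had no peak in either adult list. A peak in 1 adult list was present at 2937 lost regions (20.9%), for 2812 of them in replicate 2 and for 125 in replicate 1. The remaining 7 had peaks in both adult lists that did not form a common region.

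With every list cut to its best 7183 peaks by −log10 p, the numbers of gained and lost regions came closer together. There were 5421 adult and 6119 P0 regions at this length. Gained regions numbered 3196 (59.0% of adult regions, 57.6 to 60.3%) and lost regions 3889 (63.6% of P0 regions, 62.3 to 64.8%). The kept regions were 2225 of the adult regions (41.0%, 39.7 to 42.4%) and 2230 of the P0 regions (36.4%, 35.2 to 37.7%). Lost regions thus outnumbered gained regions at both lengths, by far less at equal length. With nearly equal numbers kept, the excess at equal length follows from the larger number of P0 regions, 6119 against 5421. At this length the P0 replicates shared 85.3% of their peaks and the adult replicates 76.5%, and the part of this in the counts was not tested. The share of adult regions that was gained was larger at equal length than in the full lists, and the share of P0 regions that was lost was smaller.

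**Figure D1:**
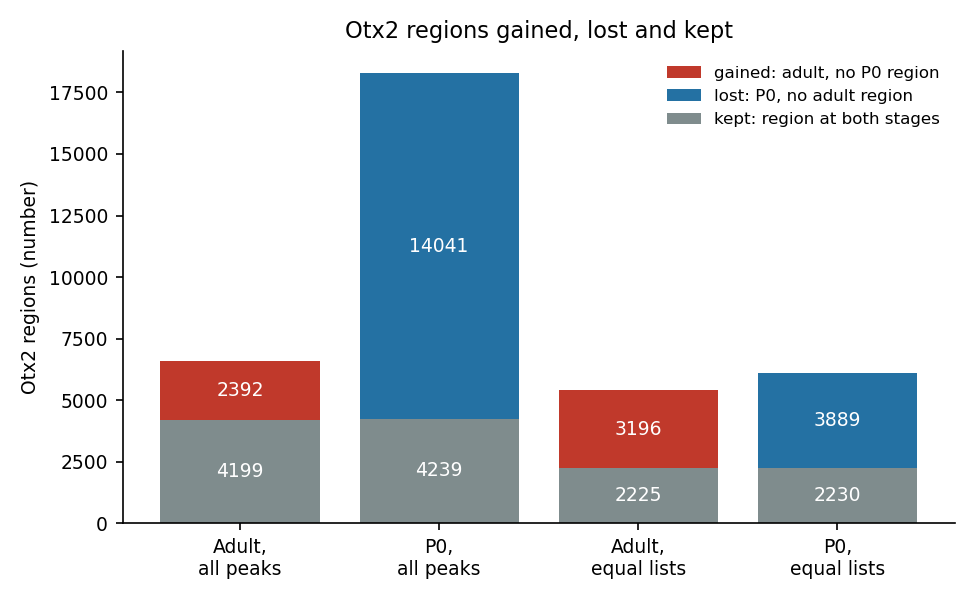
Number of Otx2 regions (vertical axis) of adult and P0 retina with all deposited peaks and with lists of equal length; red is gained, blue lost and grey kept. With all peaks 2392 adult regions were gained and 14041 P0 regions lost, and with equal lists these numbers were 3196 and 3889.

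The regions called gained at equal length differed from those called lost in what lay further down the lists of the other stage. Of the 3196 gained, 1415 (44.3%, 42.6 to 46.0%) overlapped a P0 region made from all deposited peaks. Of the 3889 lost, 231 (5.94%, 5.24 to 6.73%) overlapped an adult region made from all deposited peaks. The P0 lists are longer and offer more places to overlap, and the part of this in the difference was not tested. Among the best 1000 peaks of each list, which gave 774 adult and 843 P0 regions, 76 adult regions (9.82%) had no peak at any rank in either P0 list, and 274 P0 regions (32.5%) had none at any rank in either adult list. Among the best 100 peaks, 3 of 73 adult regions (4.11%) and 19 of 84 P0 regions (22.6%) had none. The share kept within lists of equal length went up with that length, with 25.5% of adult and 22.7% of P0 regions at 500 peaks, 32.9 and 29.9% at 2000 peaks and 36.6 and 33.7% at 4000 peaks.

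Replicates of a stage shared far more peaks than lists of different stages. At equal length the adult replicates shared 76.5% of their peaks and the P0 replicates 85.3%, while the 4 pairs of an adult and a P0 list shared 38.4 to 41.0%. The mean within a stage was 80.9% and the mean between stages 39.6%, a difference of 41.3 percentage points. All within-stage pairs lay above all pairs between stages. In an exact two-sided permutation test over the 3 ways to pair 4 libraries p was 0.333, the smallest this design allows, so it cannot reach 0.05. Among the best 2000 peaks the adult replicates shared 79.1% and the P0 replicates 86.5%, and pairs between stages 30.8 to 34.1%. A batch that goes with a stage cannot be told apart from the stage.

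Where a region was kept, the summit of Otx2 signal lay somewhat further off between stages than between replicates. In the kept regions the median distance between the best-ranked summits was 32.0 bases for the adult replicates and also 32.0 bases for the P0 replicates. Between an adult and a P0 list it was 50 to 58 bases. The summits lay within 100 bases of each other in 84.2% of kept regions for the adult replicates and in 81.6% for the P0 replicates, against 68.2 to 71.5% between stages. The mean of the medians was 32.0 bases within and 54.4 bases between stages (exact two-sided permutation p = 0.333, again the smallest possible). In kept regions of at most 1000 bases the medians were 33.0 and 32.0 bases within the adult and P0 stages and 48.0 to 55.0 bases between stages. In most kept regions the summits of both stages lay within 100 bases, and the required overlap by itself limits this distance.

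**Figure D2:**
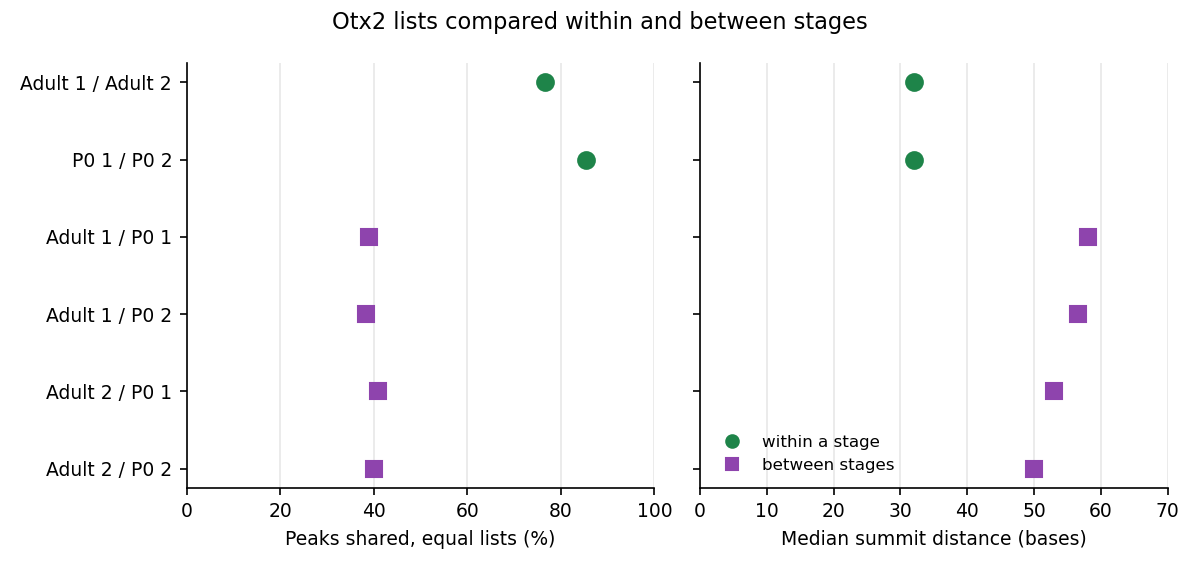
For each pair of Otx2 lists, the share of peaks that overlap at equal list length (left, percent) and the median distance between summits in kept regions (right, bases). Green circles are pairs of replicates of a stage, at 76.5 and 85.3% and at 32.0 bases, and purple squares are pairs of an adult and a P0 list, at 38.4 to 41.0% and 50 to 58 bases.

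The regions that were kept were more often those with the best-ranked peaks. Regions of each stage were put in 10 bins of equal size by the worse of their ranks in the lists of that stage. In the best bin 568 of 660 adult regions (86.1%, 83.2 to 88.5%) were kept from P0, and in the last bin 283 of 659 (42.9%, 39.2 to 46.8%). Of the P0 regions, 987 of 1828 in the best bin (54.0%, 51.7 to 56.3%) and 165 of 1828 in the last (9.03%, 7.80 to 10.4%) were kept in the adult. The share went down from every bin to the next at both stages. The best bin of P0 regions, in which 54.0% were kept, spanned ranks 1 to 2118 in the worse list.

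**Figure D3:**
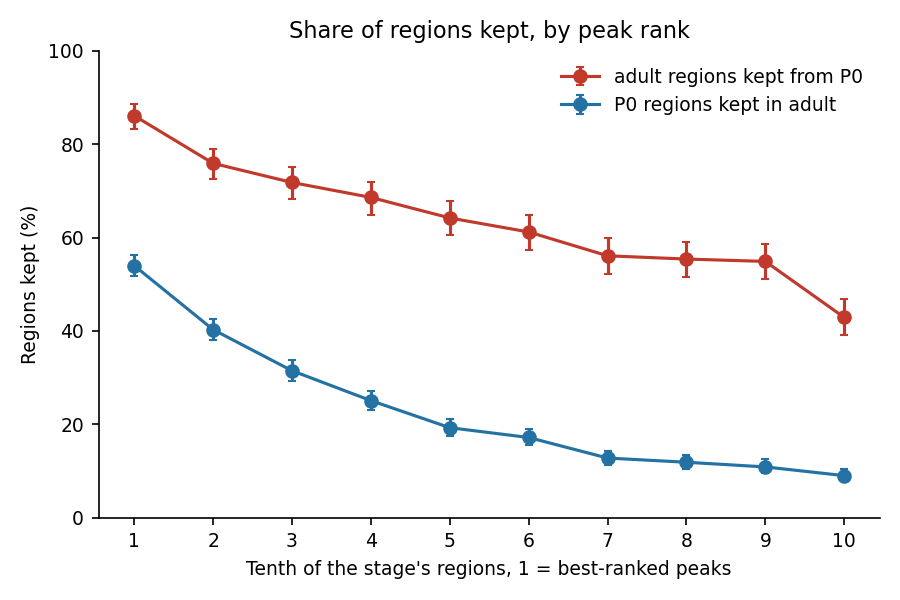
Percent of Otx2 regions kept (vertical axis) in 10 bins of the regions of a stage by peak rank, best on the left; red is adult regions kept from P0 and blue P0 regions kept in the adult, with 95% Wilson intervals. The share ran from 86.1% in the best to 42.9% in the last bin for adult regions, and from 54.0 to 9.03% for P0 regions.

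Kept regions were longer and had higher folds than the others of their stage in the full lists, and at equal list length both gaps were smaller on the P0 side. The median length was 557 bases for gained regions (quartiles 451 and 732) and 636 for kept regions on the adult side (488 and 862). On the P0 side it was 520 for lost regions (390 and 676) and 641 for kept regions (500 and 843). At equal list length the medians were 637 for gained and 691 for kept adult regions, and 733 for lost and 757 for kept P0 regions. Regions of a single list are shorter: without adult replicate 2 the medians were 327 for gained and 413 for kept regions, and without adult replicate 1 they were 359 and 495. The authors' fold is the ratio of signal to background at a summit, and folds of different libraries are on different scales. In adult replicates 1 and 2 the median fold was 7.36 and 14.1 at gained regions, and 8.11 and 19.2 at kept regions. In P0 replicates 1 and 2 it was 6.67 and 7.37 at lost regions, and 10.3 and 11.3 at kept regions. At equal list length the P0 folds were 13.3 and 15.4 at lost and 14.9 and 16.0 at kept regions, and the adult folds 8.39 and 18.0 at gained and 9.37 and 23.9 at kept regions.

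Kept regions that stayed within all 4 equal lists also differed in place on them. In 875 of the 2225 (39.3%) both adult ranks were ahead of both P0 ranks, in 682 (30.7%) both P0 ranks were ahead, and in 668 (30.0%) the ranks of the stages overlapped. The region furthest ahead in the adult, chr19:53864005-53864991, ranked 436 and 643 in the adult lists and 6879 and 6858 in the P0 lists, with folds of 22.7 and 49.0 in the adult and 8.48 and 9.48 at P0. It was followed by chr19:8957740-8960465, at ranks 237 and 200 in the adult and 6504 and 6396 at P0, and by chr4:148218572-148219684, at 423 and 512 in the adult and 7043 and 6472 at P0. The region furthest ahead at P0, chr9:96918949-96919506, ranked 6144 and 5837 in the adult lists and 287 and 402 in the P0 lists, with folds of 3.56 and 8.28 in the adult and 30.7 and 28.9 at P0. The next, chr2:172178343-172178815, ranked 6246 and 6351 in the adult and 1011 and 1091 at P0, and chr14:60987682-60988138 ranked 6584 and 5756 in the adult and 472 and 639 at P0. These 6 were chosen for the gap between the ranks of the stages, so that gap is a description of the choice. All coordinates are those of mm9, counted from 1, and no gene annotation of mm9 was used here, so that the genes beside the regions are not named.

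The strongest regions of each class can be read off the lists. Chosen were the 6 regions of each class with the best of the worse ranks, with no peak in either list of the other stage for gained and lost regions. The leading gained region, chr6:58782493-58784381 (1889 bases), had folds of 57.9 and 218 in adult replicates 1 and 2, at ranks 38 and 15, and no peak at P0. The second, chr12:87847859-87849410, had folds of 59.8 and 164 in the adult lists, and the third, chr10:79794488-79795360, had 52.9 and 156. Next came chr5:137841146-137841970, chr19:4139226-4140407 and chr1:4347275-4349254, with folds of 40.7 to 45.4 in adult replicate 1 and 104 to 143 in replicate 2. These 6 regions had no Otx2 peak at E14 and no BCOR peak at E14 or P0. Each of them did have a BCOR peak in at least 1 adult BCOR list, with folds of 4.12 to 12.4. Only chr10:79794488-79795360 and chr1:4347275-4349254 had one in both adult BCOR lists. Of all gained regions, 2.38 and 6.81% had a peak in BCOR adult replicates 1 and 2.

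The strongest lost regions were chosen likewise from the P0 lists, so their lack of an adult peak is part of the choice. The leading lost region, chr11:85851777-85853675 (1899 bases), had no adult peak and folds of 86.9 and 118 in P0 replicates 1 and 2, at ranks 29 and 23. Next, chr1:128911066-128912832 had 91.4 and 112 in the P0 lists, and chr7:37289015-37290038 had 90.5 and 114. The other 3, chr17:5660094-5661442, chr2:97318192-97319610 and chr5:134458920-134460250, had 79.5 to 85.2 in P0 replicate 1 and 73.7 to 102 in replicate 2. All 6 had an Otx2 peak at E14, with folds of 5.18 to 9.72, and a BCOR peak in P0 replicate 2, with folds of 3.86 to 16.5. In BCOR P0 replicate 1, 3 of the 6 had a peak, with folds of 5.10 to 7.46. None had a BCOR peak in either adult list. An E14 Otx2 peak lay at 29.9% of all lost regions and at 76.0% of those in the best rank bin of P0 regions. Of all lost regions, 14.1 and 25.0% had a peak in BCOR P0 replicates 1 and 2, and 1.74 and 3.61% in BCOR adult replicates 1 and 2.

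Among the best-ranked kept regions, 1 stood apart from the rest by its low folds. The region chr2:98506732-98507463 ranked first by −log10 p in all 4 Otx2 lists. Its folds were 2.77 and 3.87 in the adult and 2.32 and 2.01 at P0. The median folds of all peaks were 7.40 and 8.88 in the adult lists and 6.36 and 6.49 in the P0 lists. It had a peak in all 6 other lists, of both proteins, and whether its signal is specific to Otx2 was not tested. The second, chr6:90938524-90939681, had folds of 72.2 and 231 in the adult lists and 121 and 108 in the P0 lists. The third, chr7:6314923-6316704, had 46.4 and 109 in the adult and 87.2 and 81.4 at P0, and chr6:124789746-124791163 had 103 and 280 in the adult and 109 and 135 at P0. The last of the 6, chr17:57170887-57172198 and chr7:52241658-52242448, had folds of 23.4 to 87.8 in the adult and 57.6 to 61.1 at P0. All 6 also had an Otx2 peak at E14, as had 54.3% of all kept regions on the adult side. In the best rank bin it was 62.9% of kept adult and 91.6% of kept P0 regions. A fold under 3 in all 4 lists was found at 19 kept regions, and with a fold of at least 3 required in all lists 2383 regions were gained, 13965 lost and 4151 adult regions kept.

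**Figure D4:**
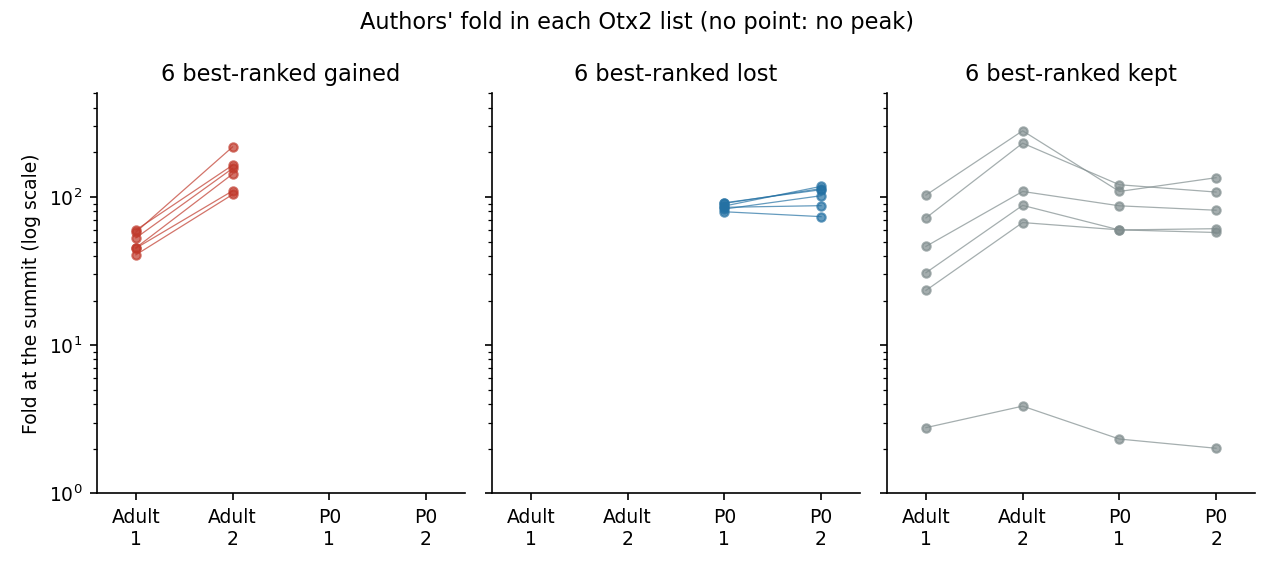
The authors' fold at the summit (vertical axis, log scale) of the 6 best-ranked gained, lost and kept regions in each Otx2 list, with a line joining the points of 1 region and no point where a list has no peak. Gained regions have points of 40.7 to 218 in the adult lists alone, lost regions points of 73.7 to 118 in the P0 lists alone, and 1 kept region lies near 2 to 4 in every list.

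Gained regions were nearly free of Otx2 peaks at E14. Of all adult regions 35.4% held an E14 Otx2 peak, and of all P0 regions 35.5%. Among gained regions it was 55 of 2392 (2.30%, 1.77 to 2.98%), among lost regions 4196 of 14041 (29.9%, 29.1 to 30.6%) and among kept regions, counted here on the adult side, 2278 of 4199 (54.3%, 52.7 to 55.8%). The gained share was 5.59% without adult replicate 1 and 1.16% without P0 replicate 1. Each peak of the remaining list of that stage then counted as a region. At equal list length the shares were 13.5% of gained, 54.5% of lost and 76.1% of kept regions, in the same order. E14 has a single library, so this share has no replicate check. Seen from E14, 53 of the 8497 Otx2 peaks (0.624%) lay at a gained region, 4236 (49.9%) at a lost region, 2327 (27.4%) at a kept region and 1881 (22.1%) at no region of either stage.

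Among regions of like peak rank the gap between lost and kept regions was much smaller, and the gap between gained and kept regions was as large. With each rank bin given the weight of its size, 2.33% of gained and 53.1% of kept adult regions held an E14 Otx2 peak, and the kept share was higher in 10 of 10 bins. Weighted in the same way, 33.4% of lost and 38.4% of kept P0 regions held one, and the kept share was higher in 6 of 10 bins. In the best bin of P0 regions the shares were 76.0% of lost and 91.6% of kept regions. In the last bin they were 10.7% of lost and 8.48% of kept regions.

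In the full lists BCOR was seldom found at gained regions at any stage. P0 and adult BCOR were more frequent at the regions called gained at equal list length. At E14, 29.3% of all adult and 30.9% of all P0 Otx2 regions held a BCOR peak, and the shares were 3.60% of gained (86 of 2392), 26.9% of lost (3773 of 14041) and 44.0% of kept regions (1848 of 4199). At P0, where a BCOR region needed a peak of each replicate, 20.2% of all adult and 17.1% of all P0 Otx2 regions held one. This was 1.88% of gained (1.41 to 2.51%), 13.1% of lost (12.5 to 13.7%) and 30.6% of kept regions (29.2 to 32.0%). In the adult, 11.0% of all adult and 4.76% of all P0 Otx2 regions held a BCOR region, with 1.71% of gained (1.27 to 2.32%), 1.25% of lost (1.08 to 1.45%) and 16.4% of kept regions (15.3 to 17.5%). At equal Otx2 list length P0 BCOR lay at 8.89% of gained, 20.2% of lost and 44.0% of kept regions. Adult BCOR lay at 5.29% of gained, 1.54% of lost and 24.2% of kept regions. The gained class at that length is another set, as 44.3% of it overlapped a P0 Otx2 region made from all deposited peaks. The deposited lists reach to unlike q-values, up to 0.248 in both adult BCOR lists and 0.0999 at E14, against 0.0496 or less in the P0 BCOR lists. With a q of at most 0.05 in every list, adult BCOR lay at 1.63% of gained, 1.17% of lost and 15.9% of kept regions.

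The spread between BCOR replicates was smaller than these gaps, except in the adult between gained and lost regions. In BCOR P0 replicates 1 and 2 a peak lay at 1.96 and 3.26% of gained, 14.1 and 25.0% of lost and 31.8 and 41.6% of kept regions. In BCOR adult replicates 1 and 2 it lay at 2.38 and 6.81% of gained, 1.74 and 3.61% of lost and 20.1 and 30.4% of kept regions. In each adult replicate the gained share was above the lost share, but the shares of gained and lost regions overlapped between replicates. Without adult Otx2 replicate 1, 4.77% of gained and 7.58% of lost regions held a P0 BCOR region, 0.125% of lost regions held an adult one, and 1.29% of gained regions did. Without P0 Otx2 replicate 1, 1.16% of gained regions held a P0 BCOR region. In both cases each peak of the remaining Otx2 list of that stage counted as a region.

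**Figure D5:**
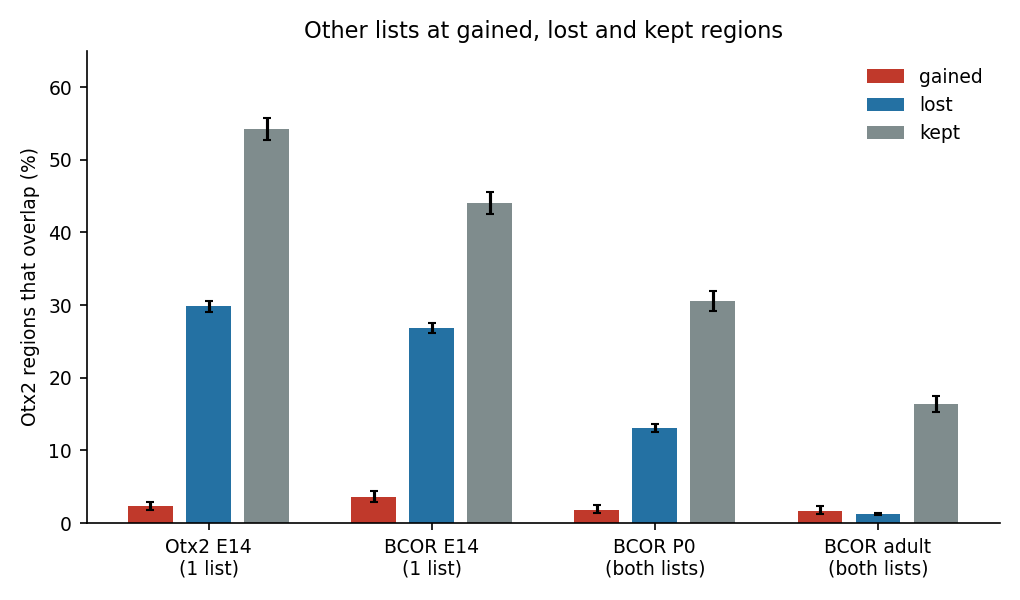
Percent of gained (red), lost (blue) and kept (grey, adult side) Otx2 regions that overlap an Otx2 peak at E14 or BCOR at E14, P0 and adult, with 95% Wilson intervals. Gained regions lie at 1.71 to 3.60% in all 4 groups of bars, and kept regions at 54.3, 44.0, 30.6 and 16.4%.

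Among regions of like peak rank BCOR was also less frequent at gained than at kept regions. Weighted over rank bins, 1.88% of gained and 29.8% of kept adult regions held a P0 BCOR region, and 3.08% of gained and 14.8% of kept regions held an adult one, the kept share being higher in 10 of 10 bins for both. In the best rank bin 20.7% of the 92 gained regions held an adult BCOR region, against 35.7% of the 568 kept regions, while 2.17% of these gained regions held a P0 BCOR region. In the other 9 bins adult BCOR lay at 0.346 to 3.77% of gained regions, and in the last of them the gap was small, with 0.532% of gained and 0.707% of kept regions. For P0 regions the weighted shares with a P0 BCOR region were 14.2% of lost and 21.9% of kept regions, higher in kept regions in 8 of 10 bins. Those with an adult BCOR region were 1.24% of lost and 11.8% of kept regions, higher in 10 of 10.

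BCOR at birth was less often followed by BCOR in the adult at lost than at kept Otx2 regions, in shares not matched for peak rank. Of lost regions that held a P0 BCOR region, 158 of 1838 (8.60%, 7.40 to 9.97%) held an adult BCOR region, and of kept regions with a P0 BCOR region 549 of 1286 (42.7%, 40.0 to 45.4%) did. Without a P0 BCOR region an adult one lay at 18 of 12203 lost regions (0.148%) and at 146 of 2953 kept regions (4.94%). Seen from BCOR, 40 of the 1035 adult BCOR regions (3.86%) lay at a gained, 177 (17.1%) at a lost and 694 (67.1%) at a kept Otx2 region, and 124 (12.0%) at none. The lost class includes regions with a peak in 1 adult Otx2 list. Of all 14041 lost regions 176 held an adult BCOR region, and of the 11097 without any adult Otx2 peak 13 did (0.117%). The adult BCOR lists are the shortest of the series, with 1339 and 2445 peaks, and their part in these shares was not tested.

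Many places bound by Otx2 in these libraries carried no other peak of the series. No peak in any of the 6 other lists was found at 2139 gained (89.4%), 8094 lost (57.6%) and 1502 kept regions (35.8%). Peaks in all 6 other lists were found at 13 gained (0.543%), 141 lost (1.00%) and 531 kept regions (12.6%). The 531 kept regions had median folds of 7.40 and 24.0 in the adult lists and 13.2 and 13.6 in the P0 lists. Without the regions with peaks in all 6 other lists 2380 regions were gained, 13912 lost and 3667 adult regions kept.

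Gains and losses were spread over all 19 chromosomes. The share of adult regions that was gained ran from 29.6% on chromosome 11 to 43.1% on chromosome 18, and the share of P0 regions that was lost from 72.4% on chromosome 7 to 82.5% on chromosome 16. Gained regions lay nearer to kept regions than lost regions did, at a median distance of 67.0 kb for gained and 176 kb for lost regions, and 65.9 kb from a kept region to the nearest other kept region. At equal list length the medians were 152 kb for gained and 333 kb for lost regions. Within 50 kb of a kept region were 43.6% of gained and 24.0% of lost regions. Near misses were rare: 101 gained regions (4.22%) lay within 1 kb of a P0 region, and 187 lost regions (1.33%) within 1 kb of an adult region. For comparison, 191 kept regions (4.55%) lay within 1 kb of another kept region.

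Lost regions made up 68.1% of the 20619 places, and the windows richest in them held few of the other classes. In windows of 1 Mb, the most lost regions were 34, at 132 to 133 Mb of chromosome 5, with 0 gained and 0 kept, and also 34 at 113 to 114 Mb of chromosome 11, with 1 gained and 3 kept. The window at 55 to 56 Mb of chromosome 18 held 33 lost, 1 gained and 2 kept regions. The most gained regions were 11, at 129 to 130 Mb of chromosome 2, beside 7 lost and 4 kept, so that gained regions made up no more than an even share there. The windows at 148 to 149 Mb of chromosome 4 and 87 to 88 Mb of chromosome 12 held 10 gained regions each, beside 23 lost and 11 kept on chromosome 4 and 11 lost and 5 kept on chromosome 12. The window on chromosome 12 also holds the second-ranked gained region named above. The most kept regions were 25, at 69 to 70 Mb of chromosome 11, beside 2 gained and 22 lost, and 21, at 79 to 80 Mb of chromosome 10, beside 7 gained and 19 lost. The third such window, at 3 to 4 Mb of chromosome 9, held 19 kept, 4 gained and 1 lost region. The kept ones had low median folds, 1.53 and 1.75 in the adult lists and 1.29 and 1.33 in the P0 lists. All 19 had peaks in all 6 other lists, and whether their signal is specific to Otx2 was not tested. Of 2234 windows with a region, 1060 held a gained region, and 1028 of these (97.0%) also held a lost one, which is close to the share of all windows that did, 2181 (97.6%).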

How the data were processed

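The authors called the deposited peaks with MACS2, library by library, as the labels state. The submitters' processing notes add Bowtie2 and deepTools and the builds mm9 and mm10, without versions or roles. The control and threshold are not given in the sources used here. Peaks on chromosome 1 run past its end in mm10 and stay within mm9 in all lists but that of BCOR adult replicate 1, which fits both, so all coordinates are taken as mm9. Each deposited peak has a fold (ratio of signal to background at its summit), a −log10 p-value, a −log10 q-value and a summit offset, the authors' own values, used for ranks and filters inside each list. The largest q-value was 0.0466 to 0.0489 in the adult and P0 Otx2 lists, 0.0481 and 0.0496 in the P0 BCOR lists, 0.0996 and 0.0999 in the E14 lists and 0.248 in the adult BCOR lists. Read depth is unknown.

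Groups follow the sample titles. Peaks were merged and compared with Python 3.11.15, numpy 2.4.6 and pandas 2.3.3, and intervals come from scipy 1.17.1. Peaks were ranked by −log10 p, ties by fold. The region code was tested on simulated lists. Named regions were the 6 per class, the 3 per direction of rank change and the 3 windows per class that lead by rank or count. Members and lists were chosen with earlier results of these data known, and rank bins, the fold minimum, the q limit and the joint BCOR shares were chosen after seeing the data. RNA counts were not analysed here. Motifs and genes near regions need the mm9 sequence and gene models, and were not analysed either.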

Additional observations from a re-analysis of the deposited data

How the results depend on the processing

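Of 184 alternative values 135 stayed and 49 moved. A value stayed if it lay within 1.5 times the reported count, or within the replicate spread or interval of the reported share. Counts, shares and lengths cannot change sign. The differences between within-stage and between-stage overlap or summit distance can, and none did. Equal lists by −log10 p gave 2225 adult and 2230 P0 regions kept, 3889 lost, and 41.0 and 36.4% kept. They gave an E14 Otx2 peak at 13.5% of gained, 54.5% of lost and 76.1% of kept regions. P0 BCOR lay at 8.89% of gained and 44.0% of kept regions, and adult BCOR at 5.29% of gained and 24.2% of kept regions. Equal lists by fold gave 2071 adult and 2076 P0 regions kept, 3870 lost, and 38.3 and 34.9% kept. With summits within 100 bases 56.0% of adult regions were kept. With a −log10 q of at least 5 the E14 share was 28.8% of lost and 50.5% of kept regions. Where a peak of 1 replicate of the other stage was enough, 72.5% of adult and 39.3% of P0 regions were kept, which was 7183 of the P0 regions. The within-stage overlap exceeded the between-stage overlap by 31.2 percentage points with all peaks and by 50.3 with the best 2000. Summit distances differed by -19.5 bases in regions of at most 1000 bases, and by -22.4 in all kept regions. Requiring 50% of the shorter region moved none of 15 values.

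Leaving out 1 library at a time gave 4379 to 7071 adult and 4350 to 7058 P0 regions kept, 1984 to 7519 gained and 11222 to 20194 lost, with 48.5 to 69.9% of adult and 18.8 to 38.6% of P0 regions kept. An E14 peak lay at 1.16 to 5.59% of gained, 23.0 to 29.8% of lost and 50.1 to 54.0% of kept regions. P0 BCOR lay at 1.16 to 4.77% of gained, 7.58 to 25.0% of lost and 28.4 to 41.6% of kept regions, and adult BCOR at 1.29 to 6.81, 0.125 to 3.61 and 12.0 to 30.4%. Median lengths were 327 to 554 bases for gained, 361 to 521 for lost and 413 to 635 for kept regions. With 1 list left for a stage, every peak of that list counted as a region, so the rule for a region changed along with the library. The effects of rule and library cannot be told apart here, and the cause of these shifts was not tested. No paired analysis was possible because the class counts come from no test and the labels do not say that a replicate number is shared between stages. Depth is unknown, so a missing peak is not absence of binding.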

Other observations

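On the X chromosome, which was not part of the comparison, the adult lists held 137 and 360 Otx2 peaks and the P0 lists 435 and 440. They formed 125 adult regions, of which 57 (45.6%) were gained and 68 kept, and 335 P0 regions, of which 265 (79.1%) were lost and 70 kept.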
